A study of Mus musculus with 3 samples.

Results

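The collagen gene family was taken as every gene symbol made of Col, a number, the letter a and a number, which gave 44 chains among the 28001 features of the count matrices. Their levels were followed across endothelial, fibroblast, mural, epicardial, glial and cardiomyocyte cells, gated on marker genes that include no collagen. The cells came from newborn ICR mice (postnatal day 2) of genotype HCN4H2BGFP, a reporter that labels nuclei green where the pacemaker channel gene Hcn4 is used. There were 3 single-cell libraries, 1 per group: cells sorted as HCN4-GFP-positive, cells sorted as HCN4-GFP-negative, and an unsorted library titled RA. All groups shared strain, genotype and age, and all were labelled as sinoatrial node region, the tissue around the natural pacemaker of the heart. The title RA and that tissue label differ, so the library is called RA here, and the number of animals behind a library was not stated.

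Collagens are extracellular matrix proteins whose chains wind around each other into a triple helix. Fibrillar chains, those of collagens I, III and V among them, assemble into the fibres that give tissue its tensile strength, and FACIT chains (fibril-associated collagens with interrupted triple helices) sit on the surface of such fibres. The chains of collagen IV form the sheet-like network of basement membranes, collagen VI forms beaded filaments close to cells, collagens XV and XVIII lie at basement membranes and carry sugar side chains, and collagens XIII, XVII, XXIII and XXV span the plasma membrane. In the heart, fibroblasts are known as the main source of fibrillar collagen, and endothelial cells rest on a basement membrane.

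The libraries held 50416748, 38204709 and 19975326 UMIs (unique molecular identifiers, 1 per captured transcript) for GFP-positive, GFP-negative and RA in turn, and 3289, 3032 and 1289 cells were kept. Haemoglobin genes took 0.0927%, 8.89% and 12.4% of the UMIs, and pairs of libraries shared 8 to 19 cell barcodes. A cell entered a gate when at least 3 of the markers of a class had at least 2 UMIs each and no other gate reached this; cells that reached several gates, 22.6% to 25.9% of a library, were left out, and no doublet caller was run. A class was summed in a library that held at least 20 of its cells, which gave 15 sums. Each sum detected every marker of its own class, except that Vtn was at 0 in the mural sum of RA. Airway markers, a further gate, summed to 382, 442, 376 and 410 CPM in the GFP-positive endothelial, epicardial, cardiomyocyte and leukocyte sums. In the sums of the other libraries they reached at most 4.73 CPM, and 5 GFP-positive cells entered the airway gate. The origin of these transcripts, and whether all epicardial-gated cells came from the heart, was not tested. The sums covered 2203, 126 and 170 endothelial cells, 1648 GFP-negative and 566 RA fibroblasts, 140 and 27 mural cells of the same libraries, 95, 31 and 45 cardiomyocytes, 81 epicardial cells (GFP-positive) and 53 glial cells (GFP-negative). Levels are counts-per-million values of the sum (CPM), with 95% exact Poisson intervals that cover counting error only. They are not divided by transcript length, so levels are compared between sums and not between chains.

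Fibroblasts devoted the largest share of their transcripts to collagen among the 6 classes. All 44 chains together took 2.85% of UMIs in GFP-negative and 2.34% in RA fibroblasts, with per-cell medians of 2.57% (quartiles 1.62% to 4.04%) and 2.21% (1.53% to 3.16%). Epicardial cells followed at 1.34% and glial cells at 1.05%, each from 1 library. Mural cells, the smooth muscle cells and pericytes around vessels, stood at 0.628% (GFP-negative) and 0.333% (RA). Endothelial cells were at 0.192%, 0.302% and 0.239% and cardiomyocytes at 0.0612%, 0.156% and 0.0961% (GFP-positive, GFP-negative, RA). Leukocytes, which make little collagen and show what free RNA and doublets can add, were at 0.0363%, 0.133% and 0.0911% in the same order. The cardiomyocyte shares thus lay close above the leukocyte shares in the GFP-negative and RA libraries, while every endothelial share was more than the leukocyte share of its own library.

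The kinds of chain differed between the classes as well. Fibrillar chains were 86.9% and 87.6% of the collagen UMIs of fibroblasts, 89.98% in epicardial cells and 79.8% in glial cells, but 61.6% and 51.6% in mural cells and 51.1%, 39.6% and 35.6% in endothelial cells. Col1a1, Col1a2 and Col3a1 alone made up 83.3% and 84.6% of fibroblast collagen. Chains of the basement membrane network took 20.1%, 35.4% and 34.5% of endothelial collagen, 21.2% and 30.8% of mural collagen and 2.37% and 3.33% of fibroblast collagen. Their share was highest, at 48.8%, in GFP-positive cardiomyocytes. It was 11.9% in GFP-negative and 19.4% in RA cardiomyocytes, where fibrillar chains made up most of the collagen. The multiplexins Col15a1 and Col18a1 added 14.0%, 13.8% and 19.0% in endothelial cells, where the transmembrane chains took 4.49%, 3.28% and 4.34%, against 0.0638% and 0.0684% in fibroblasts.

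**Figure D1:**
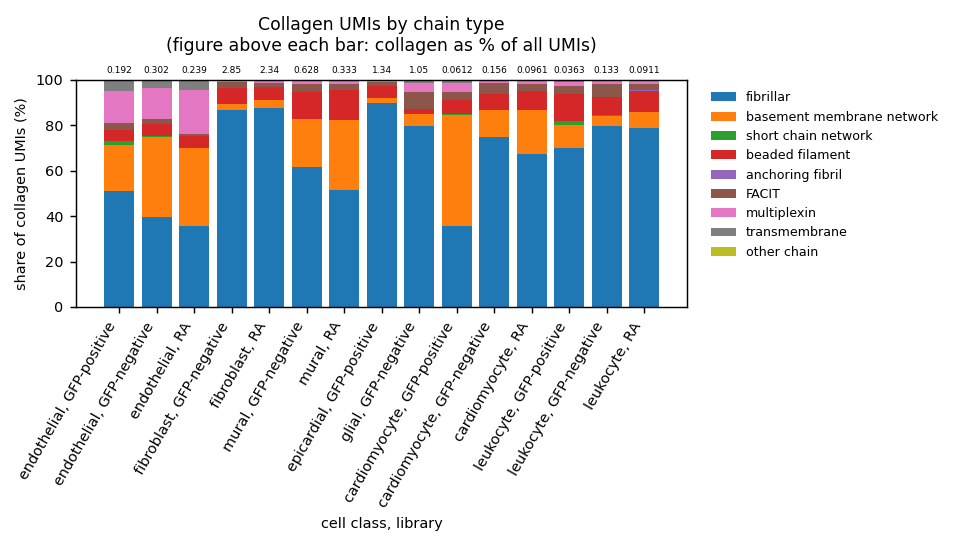
Share of collagen UMIs by chain type (stacked bars, percent, summing to 100 in each bar) in the 15 sums of a cell class and a library, with the percent of all UMIs that were collagen printed above each bar. Fibrillar chains fill most of the fibroblast, epicardial and glial bars. Basement membrane chains fill 48.8% of the GFP-positive cardiomyocyte bar, 11.9% of the GFP-negative one and 19.4% of the RA one.

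Of the 44 chains, 39 reached 20 UMIs in at least 1 sum and are described below. The other 5 (Col6a4, Col10a1, Col19a1, Col22a1 and Col28a1) stayed below that number in every sum. Of these, Col28a1 is described with glial cells, outside that rule. Between classes, 31 chains had enough counts to be tested, in 1 fit of edgeR's quasi-likelihood test over 10817 genes and 13 sums of 5 classes, with the library as a block and 6 residual degrees of freedom. The sums of a class come from differently sorted libraries of unknown animals, so the p-values measure the spread between these sums. A chain can pass the count filter through the class where it is high, so the counts of chains describe the tested chains only. Epicardial and glial cells had 1 sum each and enter no test. The contrasts against endothelial cells share the endothelial sums.

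**Figure D2:**
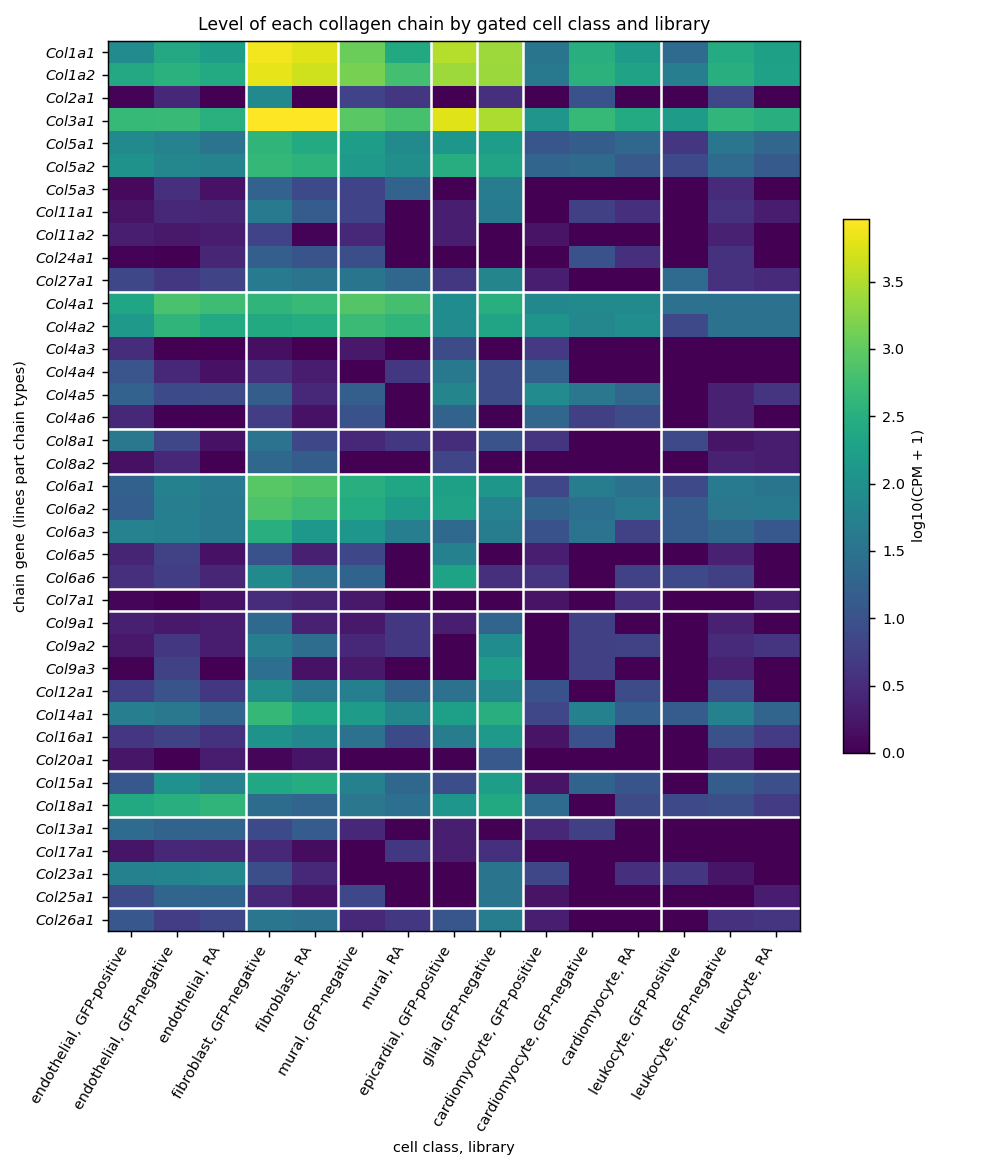
Levels of the 39 described chains (rows, grouped by chain type) in the 15 sums (columns, class and library), as log10 of CPM plus 1 (colour scale). The fibrillar rows are bright in fibroblast, epicardial and glial columns, and the Col18a1 and Col23a1 rows are brighter in endothelial than in fibroblast and mural columns.

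Against endothelial cells, 22 of the 31 tested chains were higher in fibroblasts, 3 were lower and 6 were not called (adjusted p under 0.05, edgeR). The higher calls are 71.0% of the tested chains, against 13.8% of all genes tested, and the lower calls 9.68% against 9.73%. The median log2 fold change was 3.13 over the chains and 0.08 over all genes. With scaling to library size only, 22 chains were again higher, while the calls over all genes went from 1492 higher and 1052 lower to 1170 higher and 1439 lower. All 10 tested fibrillar chains, all 4 beaded filament chains, all 4 FACIT chains and both short chain network members were higher, and 2 of 3 transmembrane chains were lower. Of the multiplexins Col15a1 was higher and Col18a1 lower, and Col26a1 was higher. None of the 5 tested basement membrane chains was called by edgeR or by DESeq2, and 1 (Col4a6, higher) passed at an unadjusted p under 0.05.

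Col1a1 and Col1a2 encode the chains of collagen I, the main fibre protein of connective tissue. Col1a1 (ENSMUSG00000001506) stood at 7951 CPM (7912 to 7989.8) in GFP-negative and 5873 CPM (5823 to 5924) in RA fibroblasts. In endothelial cells it was at 81.8 (GFP-positive), 245 (GFP-negative) and 161 CPM (RA), so no endothelial sum came near a fibroblast sum, and the log2 fold change was 4.99 ± 0.44 (SE, adjusted p = 1.17e-06, edgeR). The leukocytes of the same libraries held Col1a1 at 23.1, 277 and 179.9 CPM. In the GFP-negative and RA libraries, the endothelial level of Col1a1 was therefore at or below that of leukocytes, and only the GFP-positive endothelial level (78.5 to 85.2) lay above its leukocyte level (9.29 to 47.6). Epicardial cells had 3321 and glial cells 2454 CPM, and mural cells 1208 CPM (GFP-negative) and 255 CPM (RA).

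Col3a1 (ENSMUSG00000026043), the chain of collagen III that co-assembles with collagen I in elastic tissues, varied less between the fibroblast sums. It was at 9260.1 CPM (GFP-negative) and 9118 CPM (RA) in fibroblasts, against 459, 478 and 324 CPM in endothelial cells and 149, 407 and 316 CPM in leukocytes of the 3 libraries in turn. The log2 fold change was 4.35 ± 0.36 (adjusted p = 8.65e-07, edgeR). In RA the endothelial interval (298 to 351) overlapped the leukocyte interval (282 to 354), whereas in the GFP-positive library endothelial cells (451 to 467) lay above leukocytes (108 to 199). Epicardial cells reached 5853 CPM, the highest level outside fibroblasts, followed by glial cells at 3039 CPM.

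The fibrillar chains of collagen V, which start collagen fibrils and limit their width, had lower CPM values and were also detected in endothelial cells. Col5a2 was at 443 and 371 CPM in fibroblasts (GFP-negative, RA) and at 105, 67.1 and 59.4 CPM in endothelial cells, each of them above the leukocyte level of its library (6.60, 23.1 and 12.4 CPM), with a log2 fold change of 2.73 ± 0.28 between the classes. Col5a1 had the same order (log2 fold change 2.80 ± 0.39). The fibroblast markers summed to 726, 822 and 826 CPM in the endothelial sums and to 149, 588 and 507 CPM in the leukocyte sums. The part of such transcripts in the endothelial levels was not tested. Col5a3 was highest in glial cells, at 47.3 CPM, against 16.4 and 6.67 CPM in fibroblasts. Col27a1, a fibrillar chain known from cartilage, followed the same order with 63.9 CPM in glial cells, 40.5 and 32.6 CPM in fibroblasts, 33.7 and 20.7 CPM in mural cells and at most 6.18 CPM in endothelial cells. Col24a1 was a low chain, at 14.8 and 9.68 CPM in fibroblasts and at most 1.66 CPM in endothelial cells. The calls of Col5a3, Col11a1 and Col24a1 against endothelial cells were lost when the GFP-negative library was left out (log2 fold changes of 3.75, 2.84 and 2.61), where 1 fibroblast sum remained and was assumed to vary like the others. The call of Col5a3 was also lost without the RA library (2.78).

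Collagen VI surrounds cells with beaded filaments built from Col6a1, Col6a2 and a further, longer chain. Col6a1 was at 858 and 717 CPM in fibroblasts, 321 and 224 CPM in mural cells, 179 CPM in epicardial cells, 125 CPM in glial cells and 16.2, 55.1 and 41.1 CPM in endothelial cells. Fibroblasts exceeded endothelial cells by a log2 fold change of 4.11 ± 0.24 (adjusted p = 9.90e-08, edgeR), and Col6a2 gave 4.08 ± 0.25. The leukocyte levels of Col6a1, at 6.60, 43.0 and 34.1 CPM, were close to the endothelial levels of the GFP-negative and RA libraries. Of the longer chains, Col6a3 was at 303 and 131 CPM in fibroblasts, and Col6a6 (ENSMUSG00000043719) had another order. Its highest level was in epicardial cells, at 199 CPM (170.3 to 231), with UMIs in 67.9% of the cells (27.2% after thinning every cell to 2000 UMIs). Fibroblasts held 75.8 and 27.5 CPM of Col6a6 and endothelial cells 2.48, 4.30 and 1.66 CPM, a log2 fold change of 4.49 ± 0.52. Col6a5, the neighbouring long chain, was also highest in epicardial cells, at 54.4 CPM (39.9 to 72.3), against at most 9.09 CPM in any other sum.

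The 4 tested FACIT chains were higher in fibroblasts. Col14a1, which binds the surface of collagen I fibrils, was at 441 and 217 CPM in fibroblasts, 317 CPM in glial cells, 173 CPM in epicardial cells and 48.3, 37.9 and 18.9 CPM in endothelial cells (log2 fold change, fibroblast against endothelial, 3.24 ± 0.45). Col12a1 was at 89.0 and 37.2 CPM and Col16a1 at 104 and 71.3 CPM in fibroblasts, with log2 fold changes of 3.66 ± 0.45 and 4.43 ± 0.44. Glial cells held more Col16a1 than either fibroblast sum, at 133 CPM, and 75.7 CPM of Col12a1. Col9a2 was at 49.5 and 25.2 CPM in fibroblasts (log2 fold change 3.94 ± 0.50), with 29.1% of its GFP-negative UMIs in 4 cells. Without 5 cells with cartilage markers, described below, it was at 34.1 CPM in GFP-negative fibroblasts. Col9a1 and Col9a3 are described with the cartilage chains, and Col20a1 with glial cells.

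The chains that were lower in fibroblasts than in endothelial cells were Col18a1, Col23a1 and Col25a1. Col18a1 (ENSMUSG00000001435), the core protein of a heparan sulphate proteoglycan of vascular basement membranes and the source of endostatin, was at 257, 317 and 399.5 CPM in endothelial cells and at 24.6 and 19.0 CPM in fibroblasts. The groups were far apart in both shared libraries, with fibroblast-to-endothelial ratios of 0.0775 (GFP-negative) and 0.0476 (RA), and the log2 fold change was -3.68 ± 0.39 (adjusted p = 6.05e-06, edgeR). It was not confined to endothelium, since glial cells held 256 CPM (209.7 to 309) and epicardial cells 120.3 CPM. Col15a1 (ENSMUSG00000028339), the other multiplexin, showed the opposite order. It stood at 228 and 289 CPM in fibroblasts and 10.8, 101 and 55.5 CPM in endothelial cells, a log2 fold change of 1.97 ± 0.32 (adjusted p = 0.000277, edgeR). Without the RA library the change of Col15a1 was 1.22 on the log2 scale and no longer called.

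Col23a1 (ENSMUSG00000063564), a transmembrane collagen that can be shed from the cell surface, had a similar level in the 3 libraries over the whole endothelial gate. Within the kinds of endothelium described below its level differed between libraries. It was at 55.3 CPM (52.6 to 58.1), 61.1 CPM (47.7 to 77.0) and 67.1 CPM (55.7 to 80.2) in the endothelial cells of the GFP-positive, GFP-negative and RA libraries, whose intervals overlapped, and UMIs were found in 38.4%, 28.6% and 38.2% of the cells. Fibroblasts held 7.85 and 1.89 CPM, leukocytes at most 3.30 CPM, and no UMI appeared in 140 and 27 mural cells, which allows up to 2.66 and 10.3 CPM there. Glial cells had 33.1 CPM (18.1 to 55.6). The log2 fold change of fibroblasts against endothelial cells was -3.55 ± 0.47 (adjusted p = 6.12e-05, edgeR). Col25a1, another transmembrane chain that is known for binding amyloid beta, was at 7.05, 18.9 and 17.8 CPM in endothelial cells and at 1.85 and 0.556 CPM in fibroblasts (log2 fold change -3.73 ± 0.58). Col13a1, found at cell adhesions, was at 23.2, 17.2 and 17.2 CPM in endothelial cells and 6.65 and 13.2 CPM in fibroblasts, and that difference was not called (-0.63 ± 0.40, adjusted p = 0.316, edgeR).

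**Figure D3:**
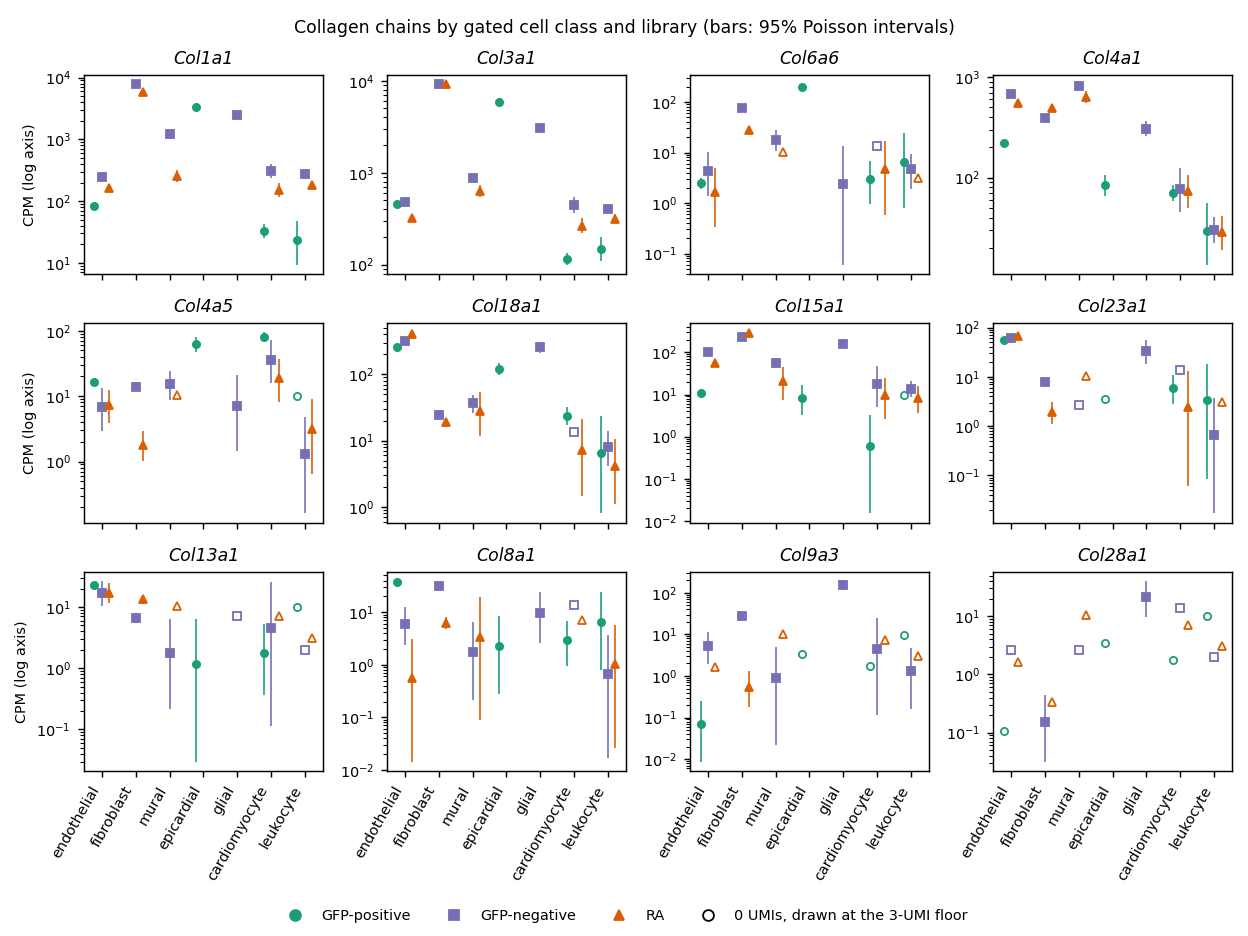
Levels of 12 chains (panels, CPM on a log axis) in each class and library, with points at the sum's CPM, bars for the 95% Poisson counting interval and open symbols at 3 UMIs where no UMI was counted. Col1a1 and Col3a1 are highest in fibroblasts, Col18a1 and Col23a1 are higher in each endothelial sum than in each fibroblast sum, Col4a5 is highest in GFP-positive cardiomyocytes, and Col6a6 is highest in epicardial cells.

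The sequences upstream of 5 of these genes are shown as examples of chains called in either direction: Col1a2, Col3a1 and Col6a1 were higher in fibroblasts, and Col18a1 and Col23a1 in endothelial cells. They are not the chains with the largest changes. They are the 120 bases before the annotated start, 5′ to 3′ on the strand of the gene, from RefSeq on GRCm38.p6, which is not the mm9 build of the counts. Capitals mark every match to the box CCAAT, to the box TATAAA or to the GC box GGGCGG on either strand. RefSeq gave 2 starts for Col18a1, and both are shown.
Col1a2, chr6:4505498-4505617, plus strand: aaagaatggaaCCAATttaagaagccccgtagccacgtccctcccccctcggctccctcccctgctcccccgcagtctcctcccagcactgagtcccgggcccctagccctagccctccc
Col3a1, chr1:45311418-45311537, plus strand: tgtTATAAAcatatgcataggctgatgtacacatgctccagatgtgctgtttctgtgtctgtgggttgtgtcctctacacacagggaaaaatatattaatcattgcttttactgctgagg
Col6a1, chr10:76726045-76726164, minus strand: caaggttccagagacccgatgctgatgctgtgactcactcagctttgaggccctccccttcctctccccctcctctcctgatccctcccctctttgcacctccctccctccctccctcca
Col18a1, chr10:77166531-77166650, minus strand: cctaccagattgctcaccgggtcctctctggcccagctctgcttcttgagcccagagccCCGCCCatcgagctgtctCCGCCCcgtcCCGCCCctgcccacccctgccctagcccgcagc
Col18a1, chr10:77113706-77113825, minus strand: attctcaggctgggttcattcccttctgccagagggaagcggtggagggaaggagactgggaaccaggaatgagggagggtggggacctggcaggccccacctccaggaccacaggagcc
Col23a1, chr11:51289800-51289919, plus strand: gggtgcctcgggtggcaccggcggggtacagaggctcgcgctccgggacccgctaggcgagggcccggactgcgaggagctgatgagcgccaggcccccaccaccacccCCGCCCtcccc
The first Col18a1 stretch holds 3 matches to GGGCGG, all on the other strand, the second Col18a1 stretch and Col6a1 hold none of the motifs, and the stretches of Col23a1, Col1a2 and Col3a1 hold 1 match each. Windows of 300 bases (250 before to 50 after a start) were found for 35 of the 44 chains, 38 windows in all. GGGCGG was in 23 of them, against 35.7% of 32851 windows of all genes, CCAAT in 13 against 37.4%, and TATAAA in 5 against 13.6%. A match of letters is a description and no site of a factor.

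None of the tested collagen IV chains was called between fibroblasts or mural cells and endothelial cells. Col4a1 (ENSMUSG00000031502) was at 806 and 634 CPM in mural cells, 220.4, 674 and 548 CPM in endothelial cells, 393 and 495 CPM in fibroblasts, 308 CPM in glial cells, 84.4 CPM in epicardial cells, 70.8, 77.3 and 74.1 CPM in cardiomyocytes and 29.0 to 30.4 CPM in leukocytes. The endothelial and fibroblast sums overlapped, and the log2 fold change between them was -0.04 ± 0.27 (adjusted p = 0.957, edgeR). Within the libraries that held both classes, mural cells had 1.20 times (GFP-negative) and 1.16 times (RA) the endothelial level of Col4a1, and the contrast was not called (0.44 ± 0.27, adjusted p = 0.328, edgeR). Col4a2, the partner of Col4a1 in the common collagen IV molecule, had a like order, at 501 and 389 CPM in mural, 136, 386 and 269.7 CPM in endothelial and 260.3 and 281 CPM in fibroblast sums.

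Both genes are read from a shared region, which is shown as a description. Whether it bears on the ratio of their levels was not tested. In RefSeq on GRCm38.p6 Col4a2 starts at position 11312805 of chromosome 8 on the plus strand and Col4a1 at 11312826 on the minus strand, so that the transcripts overlap by 22 bases, with 1 match to GGGCGG in capitals.
Col4a1 and Col4a2, chr8:11312805-11312826, plus strand: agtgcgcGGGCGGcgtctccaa
The starts of Col4a6 and Col4a5 on chromosome X, at 141474076 (minus strand) and 141475419 (plus strand), face away from each other with 1342 bases between them.

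Cardiomyocytes held more of another pair of collagen IV chains, Col4a5 and Col4a6, than endothelial cells. Col4a5 (ENSMUSG00000031274), which forms basement membrane with Col4a6 around smooth muscle and some epithelia, was at 80.3 CPM (67.3 to 95) in GFP-positive cardiomyocytes, with UMIs in 67.4% of the cells, and at 36.4 and 19.1 CPM in GFP-negative and RA cardiomyocytes. Endothelial cells held 16.4, 6.88 and 7.21 CPM, below the cardiomyocytes of the same library in all 3, with ratios of 4.89, 5.29 and 2.65. The GFP-positive cardiomyocytes held 135 UMIs of Col4a5. In the GFP-negative and RA libraries both classes held fewer than 20 UMIs, so the ratios there are uncertain. The log2 fold change was 2.39 ± 0.51 (adjusted p = 0.00152, edgeR). Col4a6 was at 19.0 CPM (13.0 to 26.9) in GFP-positive cardiomyocytes and 4.55 and 7.17 CPM in the others, on 1 and 3 UMIs, against 1.78, 0 and 0 CPM in endothelial cells (log2 fold change 3.95 ± 0.74, adjusted p = 0.000577, edgeR). Without the GFP-positive library, Col4a6 could not be tested and the change of Col4a5 (2.05) was not called. In epicardial cells, Col4a5 stood at 62.4 CPM, Col4a4 at 39.3 CPM (27.2 to 54.9) and Col4a6 at 17.3 CPM. Col4a3 and Col4a4, the chains known from kidney and ear, were otherwise low, the highest other levels of Col4a4 being 14.9 CPM in GFP-positive cardiomyocytes and 10.3 CPM in GFP-positive endothelial cells.

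Col4a5 and Col4a6 were the 2 of 31 chains called higher in cardiomyocytes than in endothelial cells, and 13 were lower. This compares with 20.8% of all genes called higher and 21.2% called lower. The median log2 fold change was -1.01 over the chains (-0.79 with chains at 0 set to their bound) and -0.08 over all genes, and scaling to library size only gave 1723 higher and 3129 lower calls over all genes in place of 2253 and 2295 and raised the lower chains from 13 to 16, with Col1a2, Col3a1 and Col6a1 added. Both multiplexins, all 3 tested transmembrane chains and 3 of 10 fibrillar chains were lower, as were Col4a1 (-2.21 ± 0.27) and Col4a2 (-1.0 ± 0.32). Of the fibrillar calls, that of Col27a1 was lost under 7 alternatives, among them the fit with no library block (-2.40) and leaving out any 1 library, and that of Col5a1 without the GFP-positive library (-1.02). Col4a2 was at 110.0, 68.2 and 86.1 CPM in cardiomyocytes, and its call was lost when either the GFP-negative or the RA library was left out (-0.59 and -0.99). The fibroblast markers summed to 283, 696 and 557 CPM in the cardiomyocyte sums and to 149, 588 and 507 CPM in the leukocyte sums of the same libraries, and Col1a1 to 33.3, 309 and 153 CPM in cardiomyocytes. The part of such transcripts in the cardiomyocyte levels was not tested.

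Mural cells differed from endothelial cells in fewer chains. Of 31 chains, 6 were higher and 3 lower, 19.4% and 9.68%, against 10.5% and 7.56% of all genes, and the median log2 fold change was 0.64 (0.68 at the bound) against -0.02. Col6a1 (2.35 ± 0.24) and Col6a2 (2.33 ± 0.26), Col27a1 (3.15 ± 0.58), Col12a1 (2.52 ± 0.55), Col16a1 (2.03 ± 0.56) and Col1a1 (1.31 ± 0.41) were higher, and DESeq2 called 4 of them, without Col16a1 and Col1a1. Col18a1 was lower (36.4 and 27.6 CPM, -3.29 ± 0.44), as were Col13a1 (1.77 and 0 CPM, -3.45 ± 0.87) and Col23a1, which had no UMI in mural cells. None of the 5 tested basement membrane chains was called by edgeR or DESeq2, and 1 (Col4a6, higher) passed at an unadjusted p under 0.05. The mural cells of RA were 27, and the number of higher chains was 2 without the GFP-negative library and 11 without the GFP-positive library. Without the GFP-negative library the changes of Col1a1 (0.07), Col16a1 (1.01), Col12a1 (2.27) and Col27a1 (2.53) were not called, and without the RA library those of Col16a1 (1.91) and Col13a1 (-3.38) were not.

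Fibroblasts exceeded mural cells in 18 of 31 chains, 58.1% of them against 5.0% of all genes. Cells that reached both gates were left out, so the mural sums hold only cells with few fibroblast markers. The part of this gating in the difference was not tested. No chain was lower, by edgeR, by DESeq2 or at an unadjusted p under 0.05 in edgeR, against 5.35% of all genes called lower. The median log2 fold change was 1.84 (1.76 at the bound) against 0.11. The largest changes between classes that both held UMIs were those of Col9a2 (4.50 ± 0.67), Col26a1 (4.13 ± 0.61), Col3a1 (3.84 ± 0.39), Col8a1 (3.76 ± 0.68) and Col2a1 (3.70 ± 0.75). DESeq2 called 14 chains and neither Col2a1 (0.35) nor Col8a1 (3.17). Without 5 cells with cartilage markers, described below, Col2a1 was at 1.83 and not called, and without the GFP-negative library the calls of Col8a1 (1.11), Col9a2 (3.13) and Col26a1 (3.32) were lost. Col15a1, at 55.0 and 20.7 CPM in mural cells, gave 2.94 ± 0.37. Without the GFP-negative library 8 chains were called, and in the fit with no library block 5. Over all genes, scaling to library size only gave 380 higher and 778 lower calls in place of 541 and 579. With cells of several gates given to the gate with the most markers, 14 of 32 chains were higher, and Col14a1 (0.62) was not called. Col1a1 was then at 2644 (GFP-negative) and 694 CPM (RA) in mural cells, above the mural levels of the main gates. In the GFP-negative and RA libraries 488 and 136 cells reached both the fibroblast and the mural gate. Their Col1a1, at 4845 and 2970 CPM, lay between the classes. Not every chain did so, since Col14a1 (522 CPM, GFP-negative) and Col4a1 (994 CPM, RA) were above both classes.

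**Figure D4:**
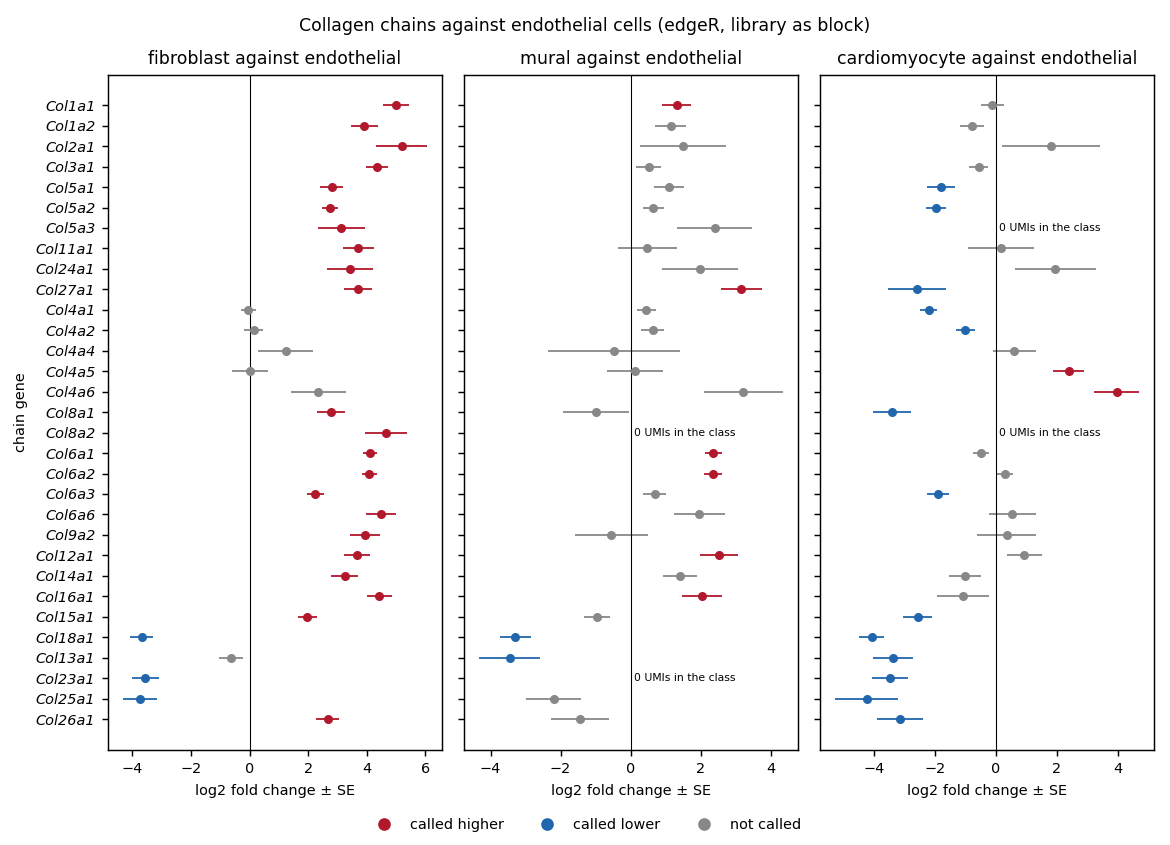
Log2 fold change (points) with its standard error (bars) of the 31 tested chains for fibroblast, mural and cardiomyocyte sums against endothelial sums (panels), with red for higher, blue for lower and grey for chains not called at an adjusted p under 0.05 in edgeR, and text where a class had no UMI. The fibroblast panel has 22 red and 3 blue points, the mural panel 6 red and 2 blue points beside Col23a1 at no UMI, and the cardiomyocyte panel 2 red points, Col4a5 and Col4a6.

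The cartilage chains Col2a1, Col9a1, Col9a3 and Col11a2 came from few cells. Col2a1, the chain of collagen II, was at 76.0 CPM in GFP-negative fibroblasts and had no UMI in RA fibroblasts. Its 1521 UMIs lay in 91 of the 1648 cells, and 4 cells held 68.2% of them, while the 10 highest cells for Col1a1 held 3.01% of that chain. The 4 cells had 284, 279, 262 and 212 UMIs of Col2a1, 69 to 114 of Col9a1, 76 to 134 of Col9a3 and 17 to 24 of Acan, the proteoglycan aggrecan of cartilage, but 0 to 5 of Col1a1. Without 5 cells that had at least 2 UMIs in at least 2 of Acan, Matn1, Matn3, Comp and Hapln1, a list chosen after these values were seen, Col2a1 fell to 21.8 CPM, Col9a1 from 21.6 to 3.36 CPM, Col9a3 from 27.2 to 5.26 CPM and Col11a2 from 5.35 to 0.902 CPM. Col11a1, at 41.0 CPM, kept 28.9 CPM without them. DESeq2 did not call Col2a1 in fibroblasts against endothelial cells.

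Glial cells held chains of collagen IX without collagen II. Col9a3 was at 151 CPM (117 to 193) in glial cells, with UMIs in 50.9% of them, and Col9a2 at 85.2 CPM, while Col2a1 was at 2.37 CPM on 1 UMI. In the GFP-negative leukocytes Col9a3 was at 1.32 CPM and Col9a2 at 1.98 CPM. Col20a1 (11.8 CPM on 5 UMIs) and Col28a1, a chain known from glia of peripheral nerves, were also highest there. Col28a1 had 9 UMIs in 7 of the 53 glial cells (21.3 CPM, 9.74 to 40.4), 3 UMIs in the 1648 GFP-negative fibroblasts and none in the other 13 sums. These levels rest on 1 library and 53 cells, and they have no replicate check.

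The ratio of chains that share a molecule differed between classes and, for some pairs, between libraries of a class. Col4a1 to Col4a2 lay between 1.51 and 2.03 in all endothelial, fibroblast and mural sums, but was 0.643 (0.507 to 0.814) in GFP-positive cardiomyocytes and 1.04 (0.741 to 1.47) in epicardial cells. In GFP-negative and RA cardiomyocytes it was 1.13 (0.532 to 2.44) and 0.861 (0.515 to 1.43), with wide intervals. Col1a1 to Col1a2 was 1.22 in both fibroblast sums and 1.37 in epicardial cells, against 0.327 (0.312 to 0.342), 0.723 and 0.612 in endothelial cells. Col6a1 to Col6a2 stayed between 0.939 and 1.44 in endothelial, fibroblast, mural and epicardial sums, but was 2.21 (1.34 to 3.74) in glial cells and 0.333 (0.145 to 0.701) in GFP-positive cardiomyocytes. In RA cardiomyocytes it was 0.667 (0.293 to 1.46). Col6a3 to Col6a1 was 3.44 (3.10 to 3.82) in GFP-positive endothelial cells, against 0.906 and 0.946 in the other endothelial sums, 0.353 and 0.182 in fibroblasts and 0.123 in epicardial cells. Col8a1 to Col8a2, the chains of the short collagen VIII of vessel walls, was 70.8 (42.7 to 127) in GFP-positive endothelial cells and 1.50 and 0.452 in fibroblasts. The intervals cover counting error only.

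Col8a1 differed by library in endothelial cells and in fibroblasts. It was at 37.1 CPM in GFP-positive, 6.02 CPM in GFP-negative and 0.555 CPM in RA endothelial cells, the last on 1 UMI, and at 31.9 and 6.23 CPM in GFP-negative and RA fibroblasts. The GFP-positive endothelial level thus exceeded both fibroblast levels, while within the GFP-negative and RA libraries fibroblasts were higher. The call of Col8a1 in fibroblasts against endothelial cells (2.77 ± 0.48) rests on the library block, and the change was 0.41 without the block. It was also lost without the GFP-negative library (2.82).

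Endothelial cells were present in all 3 libraries and were set side by side without a test, since each group had 1 library. Of 35 chains with at least 10 UMIs over both sums, 4 were at least 2 times higher in GFP-positive than in GFP-negative endothelial cells and 14 at least 2 times lower, against 10.4% and 6.62% of all genes so measured. Against RA, 6 of 34 chains were higher and 7 lower, against 11.1% and 6.32% of genes. The GFP-positive sum held 28645520 UMIs, against 1162456 and 1802165, so a chain could be measured through it alone. A count of 0 in a smaller sum was set to 3 UMIs, which keeps low chains from counting as higher. A few UMIs there sufficed for lower, and some of the 14 rest on fewer than 20. The lower chains named next had at least 22 UMIs in the GFP-negative sum. Col4a1 was lower in the GFP-positive cells (ratios of 0.327 to GFP-negative and 0.402 to RA), as were Col4a2 (0.351 to GFP-negative), Col6a1 (0.294 and 0.394), Col6a2 (0.293 and 0.370), Col15a1 (0.107 and 0.194) and Col25a1 (0.373 and 0.397). Col4a4 (5.99 and 18.6), Col4a5 (2.38 and 2.27) and Col8a1 (6.16 and 66.8) were higher than in both other libraries, where Col4a4 had 2 and 1 UMIs in the other libraries (intervals of the ratios 1.64 to 49.7 and 3.31 to 735.5) and Col8a1 had 1 UMI in RA (11.97 to 2641). The leukocyte level of Col6a1 was also lower in the GFP-positive library (6.60 CPM) than in the GFP-negative one (43.0 CPM). For Col15a1 the leukocyte levels were 0 and 13.9 CPM. The GFP-positive leukocyte sum held 26 cells and 302805 UMIs, so these levels rest on few or no UMIs there. For Col4a1 the leukocyte levels were alike, at 29.7 and 30.4 CPM.

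**Figure D5:**
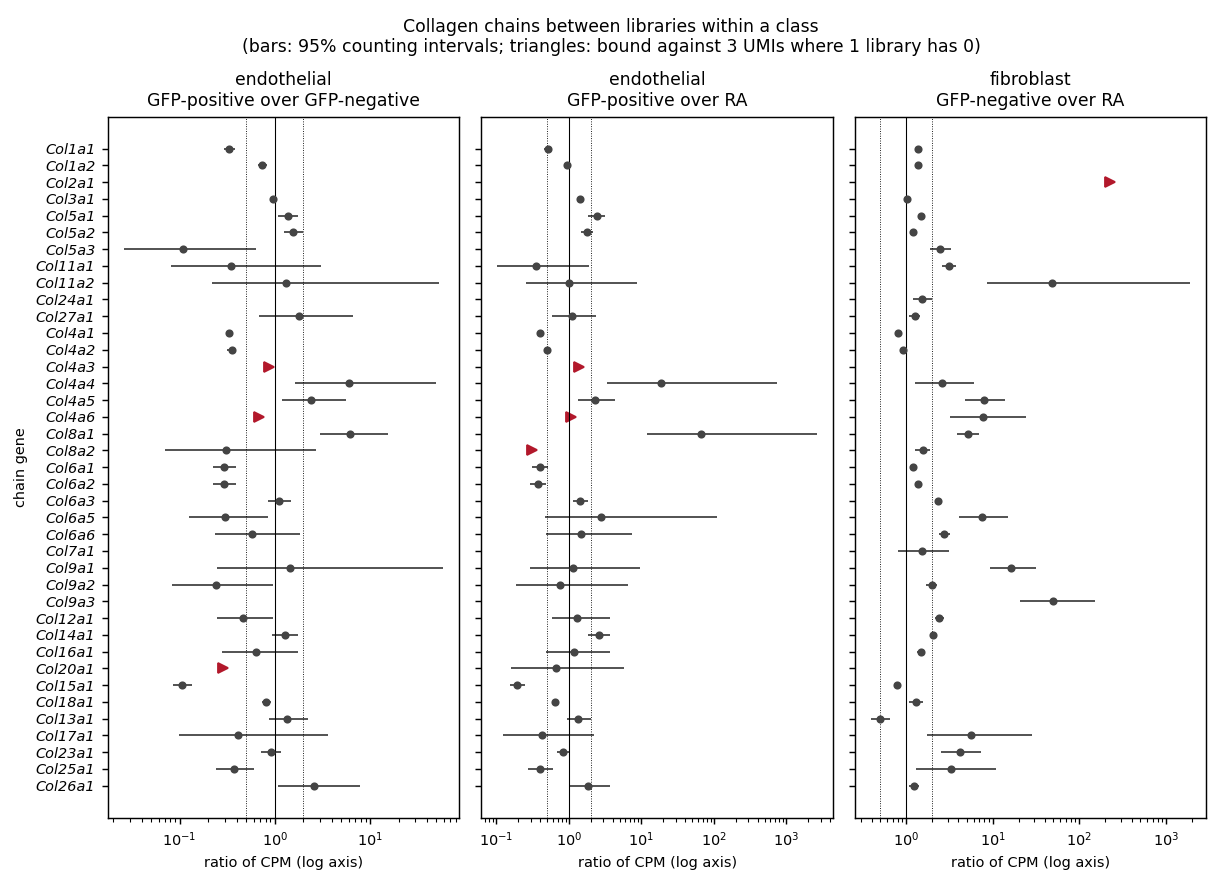
Ratio of CPM between libraries within a class (points, log axis) with 95% counting intervals (bars) and red triangles for bounds against 3 UMIs, for endothelial GFP-positive against GFP-negative, endothelial GFP-positive against RA and fibroblast GFP-negative against RA (panels). Dotted lines mark a 2-fold difference, and Col15a1 lies below the lower line in both endothelial panels.

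The endothelial gate held several kinds of endothelium. Sub-gates required at least 2 UMIs of at least 2 markers, and endocardial cells, the inner lining of the heart, were 848, 47 and 68 cells. Within them Col4a1 was at 206 CPM in GFP-positive cells against 500.3 CPM (GFP-negative) and 466 CPM (RA), and Col8a1 at 30.5 CPM against 2.32 CPM on 1 UMI and no UMI, in the same direction as in the whole class. Col15a1 was at 5.82, 13.9 and 21.3 CPM in endocardial cells. In GFP-negative and RA endothelial cells that reached no sub-gate it was at 168 and 82.4 CPM.

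Transmembrane chains and Col15a1 had opposite orders between endocardial and other endothelial cells. Col23a1 was at 67.7, 134 and 146 CPM in the endocardial cells of the 3 libraries and at 46.5, 1.81 and 10.5 CPM in endothelial cells of no sub-gate. Col25a1 (11.0, 41.7 and 42.6 CPM against 4.07, 1.81 and 1.31 CPM) and Col13a1 (35.1, 41.7 and 31.2 CPM against 23.0, 1.81 and 6.54 CPM) had the same order in every library, and Col15a1 the reverse. The levels of 1.81 CPM, all in GFP-negative cells, and the 1.31 CPM of Col25a1 in RA rest on very few UMIs. The like whole-gate levels of Col23a1 thus joined opposite differences between libraries. GFP-positive cells were lower in endocardial cells (ratios 0.504, 0.385 to 0.671, to GFP-negative and 0.464, 0.372 to 0.585, to RA). They were higher in cells of no sub-gate. Among 2203 GFP-positive endothelial cells, 845 had UMIs of Col23a1 and 130 of Col15a1, and 39 had both, where 49.9 would be found if the chains were independent. In the GFP-positive library, the only one with 20 or more of them, 213 arterial cells were highest for Col8a1 (87.9 CPM, 77.4 to 99.4) and Col4a1 (383 CPM), and 113 lymphatic cells for Col18a1 (477 CPM, 441 to 515) and Col4a5 (30.9 CPM). Lymphatic cells were lowest for Col3a1 (132 CPM against 565 CPM in endocardial cells) and Col6a3 (3.67 against 80.4 CPM), and they had no UMI of Col25a1.

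GFP-negative and RA fibroblasts were set side by side in the same way. Of 39 chains with at least 10 UMIs, 20 were at least 2 times higher in GFP-negative fibroblasts and none was at least 2 times lower, against 10.7% and 3.45% of all genes, with no test since each group was 1 library. Col2a1 was at least 228-fold higher against the floor of 3 UMIs, and Col9a3 (48.9-fold), Col11a2 (48.1-fold) and Col9a1 (16.2-fold) followed, the chains held by few cells above. Col11a1 was 3.10-fold higher, with 28.2% of its GFP-negative UMIs in 4 cells. Among chains spread over more cells, Col4a5 was 7.83-fold (4.74 to 13.9), Col8a1 5.12-fold (3.89 to 6.85), Col6a6 2.76-fold, Col12a1 2.40-fold, Col6a3 2.32-fold and Col14a1 2.03-fold higher. The abundant chains differed less. Col1a1 was at 7951 against 5873 CPM, Col3a1 at 9260.1 against 9118 CPM, and Col4a1 and Col15a1 were lower in GFP-negative than in RA fibroblasts, at 393 against 495 CPM and 228 against 289 CPM. Col13a1, at 6.65 against 13.2 CPM (ratio 0.502), lay just inside the 2-fold limit.

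Levels also differed between fibroblast sub-gates. In the GFP-negative library, 207 adventitial cells, gated on Ly6a, Clec3b, Penk and Pi16, were highest of the non-mixed sub-gates for Col1a1 (10734 CPM), Col6a1 (1180.4 CPM), Col6a6 (130.2 CPM) and Col5a3 (41.8 CPM) and lowest for Col4a1 (217 CPM) and Col24a1 (2.43 CPM). The 654 Tcf21 cells of that library, fibroblasts gated with Tcf21, a transcription factor of epicardium-derived fibroblasts, had Col1a1 at 6550.1 CPM, close to the 6015 CPM of the 510 Tcf21 cells of RA. Col4a1 was at 459.6 and 504 CPM and Col15a1 at 264 and 300.1 CPM in these Tcf21 cells. Within them Col8a1 (26.1 against 6.10 CPM), Col6a6 (47.9 against 28.1 CPM) and Col14a1 (359 against 220.3 CPM) remained higher in the GFP-negative library. Col2a1 was at 198 CPM in the 717 cells of no sub-gate and at most 3.46 CPM in the other sub-gates.

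In GFP-negative mural cells, 67 contractile cells, gated on Myh11, Cnn1, Actg2 and Smtn, and 48 pericytes, gated on Rgs5, Kcnj8, Higd1b, Vtn and Abcc9, split the chains. Col1a1 was at 1744 CPM (1633 to 1861) in contractile cells and 430.4 CPM (369 to 499.6) in pericytes, and Col14a1 at 182 against 67.2 CPM. Pericytes held more Col4a1 (1174 CPM, 1071 to 1285, against 581 CPM, 518 to 650.4), Col4a2 (674 against 395 CPM) and Col6a1 (505 against 238 CPM). Col3a1 was similar, at 878 CPM (799.7 to 962) and 1000.2 CPM (905 to 1103). Among GFP-positive cardiomyocytes, the 74 cells with markers of the node, such as Shox2, had Col4a5 at 84.3 CPM and Col4a6 at 20.7 CPM.

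Epicardial cells could be counted by a wider rule. Many cells with epicardial markers also reached the fibroblast gate (194 of the GFP-positive cells), and the fibroblast markers summed to 3714 CPM in the epicardial sum. When cells of several gates were given to the gate with the most markers, 486 cells were epicardial, with Col1a1 at 3029, Col3a1 at 5670, Col6a6 at 109.8, Col6a5 at 44.8, Col4a4 at 41.2, Col4a5 at 58.3 and Col18a1 at 75.1 CPM. Col6a6, Col6a5 and Col4a4 thus stayed higher than in either fibroblast sum of the main gates (at most 75.8, 9.09 and 2.60 CPM).

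Collagen chains are modified, folded and cut by enzymes that were followed as a separate list of 43 genes: 30 for processing, 7 receptors and 6 degrading enzymes. Of the 30 processing genes 25 were tested. In fibroblasts against endothelial cells 21 were higher (17 by DESeq2) and 1 lower, against 13.8% and 9.73% of all genes, with the largest changes for Loxl3, a cross-linking enzyme (4.64 ± 0.52), and Adamts2, which removes the amino-terminal propeptide of fibrillar collagens (4.59 ± 0.28). Adamts2 was at 416 and 324 CPM in fibroblasts, 234 and 96.4 CPM in mural cells and 8.34, 28.4 and 11.1 CPM in endothelial cells. The smallest called changes were those of Fkbp10, a folding helper (0.97 ± 0.27), P4ha1, a prolyl hydroxylase subunit (1.07 ± 0.32), and Plod1, a lysyl hydroxylase, which was lower (-0.79 ± 0.26). Plod1 was at 105, 111 and 106 CPM in endothelial cells, 57.1 and 46.8 CPM in fibroblasts and 30.2 and 20.7 CPM in mural cells. The chaperone Serpinh1 was at 836, 909 and 842 CPM in endothelial cells and 1925 and 2143 CPM in fibroblasts, against 52.8 to 124 CPM in leukocytes.

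In mural against endothelial cells 8 processing genes were higher (5 by DESeq2) and 1 lower, against 10.5% and 7.56% of all genes. In cardiomyocytes 1 was higher and 15 were lower, against 20.8% and 21.2%. In fibroblasts against mural cells 11 were higher (9 by DESeq2) and none lower (none by DESeq2 or at an unadjusted p under 0.05 in edgeR), against 5.0% and 5.35%. Mural cells were led by Loxl3 (4.37 ± 0.61), and Plod1 was their lowest gene (-1.94 ± 0.33). The higher gene in cardiomyocytes was Pcolce, an enhancer of propeptide removal (1.06 ± 0.28), at 63.6, 63.7 and 110.0 CPM against 26.0, 74.0 and 64.4 CPM in endothelial cells, and 26.4, 67.4 and 49.6 CPM in leukocytes. The lowest were P3h3, a prolyl hydroxylase (-3.25 ± 0.32), and P3h2, which had no UMI in cardiomyocytes against 4.12, 4.30 and 12.2 CPM in endothelial cells. Pcolce (2.81 ± 0.33) and Loxl1 (2.20 ± 0.38) led fibroblasts against mural cells, and the smallest called change was that of Serpinh1 (1.0 ± 0.25).

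Of the 7 receptors 5 were tested. Against endothelial cells 3 were higher in fibroblasts, all 5 in mural cells and 2 (1 by DESeq2) in cardiomyocytes, where Itgb1 was lower. The shares of all genes called higher were 13.8%, 10.5% and 20.8% in these contrasts. Ddr1, a receptor tyrosine kinase activated by collagen, was at 87.4, 40.9 and 40.6 CPM in cardiomyocytes, 79.8 CPM in epicardial cells, 26.1 and 34.8 CPM in fibroblasts and 5.79, 1.72 and 1.66 CPM in endothelial cells, so all cardiomyocyte sums lay above all fibroblast and endothelial sums (4.30 ± 0.38, adjusted p = 3.95e-07 against endothelial cells, edgeR). Ddr2, its relative that binds fibrillar collagen, was higher in mural cells (3.89 ± 0.53), with 53.2 and 41.3 CPM there and 48.5 and 34.1 CPM in fibroblasts. Itga10, an integrin chain that binds collagen, had 10 and 4 UMIs in mural cells and 4, 0 and 0 in cardiomyocytes, against 7, 0 and 0 in endothelial cells, and was called higher in both. It was lower in fibroblasts than in mural cells (-3.31 ± 0.84), as was Itga1, another collagen-binding integrin chain (-1.27 ± 0.32). Itga1 was at 63.9 and 75.8 CPM in mural, 18.3 and 34.6 CPM in fibroblast and 3.25, 8.60 and 8.88 CPM in endothelial sums.

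All 6 degrading enzymes were tested. In fibroblasts 3 were higher than in endothelial cells, in mural cells 2 and in cardiomyocytes 3 were lower, and 3 were higher in fibroblasts than in mural cells. The shares of all genes called in these directions were 13.8%, 7.56%, 21.2% and 5.0%, and DESeq2 called 2 in place of 3 in both contrasts of fibroblasts. Mmp2, a gelatinase, was at 482 and 535 CPM in fibroblasts, 211, 175 and 246 CPM in endothelial cells and 122 and 68.9 CPM in mural cells, which put mural below endothelial cells (-1.19 ± 0.33) and fibroblasts above mural cells (2.53 ± 0.34). Ctsk, a collagen-cleaving cathepsin, was lower in mural cells (-1.47 ± 0.41) and cardiomyocytes (-3.24 ± 0.43) than in endothelial cells. Mmp9 was called higher in fibroblasts (4.34 ± 1.33) on 12 and 1 UMIs, at 0.600 and 0.111 CPM, while the leukocytes held 119, 20.5 and 9.31 CPM of it.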

How the data were processed

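Single-cell RNA of 3 mouse libraries made with a 10x Genomics kit was analysed. The deposited matrices hold raw counts of UMIs for each gene and cell barcode, made by the authors with Cell Ranger on mm9 per the submitters' processing notes, which give no version. Cells needed 500 or more genes and no more than 50% of UMIs from mitochondrial genes, which removed 46, 240 and 153 for few genes and 11, 4 and 8 for mitochondrial UMIs, and left median depths of 12429, 11417 and 14143 UMIs. Cells were gated on fixed marker lists. UMIs were summed per class and library, and the sums were tested with edgeR 4.0.16 (R 4.3.3; TMM factors, filterByExpr, quasi-likelihood test, library as a block, Benjamini-Hochberg adjustment over all genes tested, threshold 0.05), which was tested on simulated data. The standard errors (SE) given for edgeR were derived from its test, as the absolute log2 fold change divided by the square root of the F statistic. DESeq2 1.42.0 and other gates, filters, scalings and left-out libraries were the alternatives. Differences between libraries within a class have no test, a gene at a ratio of 2 or more is counted as past the fold if both sums together hold at least 10 UMIs, and a count of 0 is given a floor of 3 UMIs per sum. Intervals and floors cover counting error only (95%; exact Poisson for levels, exact conditional for ratios, Clopper-Pearson for shares of cells). Named chains are those with at least 20 UMIs in a sum, and Col28a1, with at most 9 UMIs in a sum, was described and drawn outside that rule. Of the other pathway genes, the 3 largest and 3 smallest called changes per contrast are named. Itgb1, outside that rule, was named after its values were seen. The epicardial contrast was not made because 1 library held 20 or more such cells. Members and lists were chosen with earlier results of these data known. Promoter windows came from RefSeq (GRCm38.p6). Figures used matplotlib 3.10.9, and tables Python 3.11.15, numpy 2.4.6, scipy 1.17.1 and pandas 2.3.3.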

Additional observations from a re-analysis of the deposited data

Results flagged for a closer look

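Col4a5 differed in direction between libraries in fibroblasts against endothelial cells. In the GFP-negative library its level in fibroblasts was 2.03 times (1.01 to 4.74) the endothelial level, on 279 and 8 UMIs, and in RA it was 0.247 times (0.111 to 0.558), on 16 and 13 UMIs. The difference between the libraries was not tested.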

How the results depend on the processing

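Fold changes of the 67 calls (chain and contrast) gave 924 values under alternatives, of which 851 stayed on the same side of the threshold, 73 lost the call and 0 turned direction; the fit with no replicate block lost 17, leaving out the GFP-negative library 20. The library pairs the sums of a fit, and without this replicate block the chains called numbered 21 higher and 3 lower (fibroblast against endothelial), 6 and 3 (mural), 2 and 11 (cardiomyocyte) and 5 and 0 (fibroblast against mural), and over all genes 248 were higher and 350 lower in fibroblasts against mural cells. Giving mixed cells to the gate with the most markers raised the mural chains to 13 and the cardiomyocyte chains to 6 higher, lowered all genes in fibroblasts against mural cells to 339 higher, and gave 2 chains lower in GFP-negative than in RA fibroblasts. With no filter on low counts 11 chains were higher and 5 lower in mural cells. A gate at 3 UMIs gave 4 chains higher in cardiomyocytes and 1 chain lower in GFP-negative fibroblasts, mitochondrial UMIs of at most 10% gave 1 chain higher in cardiomyocytes, and a gate at 1 UMI and 4 markers gave 993 (fibroblast) and 1345 (cardiomyocyte) genes higher than in endothelial cells. Leaving out each library in turn gave 770 to 1448 higher and 599 to 1248 lower genes for fibroblast against endothelial; 2 to 11 higher and 2 to 3 lower chains and 470 to 1260 higher and 321 to 966 lower genes for mural; 0 to 2 higher chains for cardiomyocyte; and 8 to 18 higher chains and 193 to 729 higher and 253 to 799 lower genes for fibroblast against mural. Where this left a class with 1 sum, that sum was assumed to vary like the others. The cause of these shifts was not tested. Scaling to library size only moved the median log2 fold change of all genes from 0.08 to -0.12 (fibroblast against endothelial), -0.08 to -0.36 (cardiomyocyte) and 0.11 to -0.10 (fibroblast against mural), and the chains lower in cardiomyocytes went from 13 to 16, while none of the 67 calls was lost. The gate at 1 UMI and the minimum of 50 cells left no mural test, and the latter no cardiomyocyte test. Of 3432 alternative CPM levels, 332 moved by more than their counting interval, as did 16 of 402 pair ratios. The depth of the smallest sums (219870 UMIs in GFP-negative cardiomyocytes, 290316 in RA mural cells) limits chains below about 3 UMIs there.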
